A study of Mus musculus with 4 samples.

Results

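The Hippo pathway effectors and targets described here are 9 genes of 32285 counted in each library: the coactivators Yap1 and Wwtr1 (which encodes TAZ), their DNA-binding partners Tead1, Tead2, Tead3 and Tead4, and the target genes Ccn1, Ccn2 and Ankrd1. They were chosen by gene symbol, and each of the 9 symbols matched 1 row in every library. The data are single-cell RNA counts from mouse molars of wild-type C57BL/6J animals that received no treatment. There were 4 libraries, from the maxillary and the mandibular molars of E15.5 embryos (the age field of the labels reads E15) and of P1 pups (the protocol gives P0/P1), and each was made from 6 pooled tooth organs dissociated with TrypLE. With 1 library per stage and jaw there is no replicate, so no difference between groups was tested. The intervals printed are 95% exact intervals that cover counting error only, not the spread between animals.

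The Hippo pathway is a kinase cascade that restrains growth and responds to cell contact, polarity and mechanical tension. When its kinases MST and LATS are active, YAP and TAZ are phosphorylated and held in the cytoplasm, and when they are inactive both proteins enter the nucleus. YAP and TAZ do not bind DNA themselves and act largely through the TEAD proteins, which recognise the sequence GGAATG. Ccn1 and Ccn2 encode secreted matricellular proteins and Ankrd1 an ankyrin-repeat protein of striated muscle, and the 3 genes are widely used as readouts of YAP and TAZ. Because the proteins are controlled by phosphorylation and location, an mRNA level does not give their activity. In the tooth, YAP has been linked to growth of the enamel organ, the epithelium that folds over the dental papilla and gives rise to the enamel-forming ameloblasts.

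The libraries held 109723360 (E15.5 maxillary), 86659227 (E15.5 mandibular), 128812956 (P1 maxillary) and 139873101 (P1 mandibular) unique molecular identifiers (UMIs, each standing for 1 captured RNA molecule). Of 56940 barcodes, 44144 met the rule of 1000 or more UMIs without P1 mandibular barcodes that were also in the P1 maxillary library, and 35485 remained after predicted doublets and barcodes high in mitochondrial UMIs were removed. These were 8367, 6046, 13574 and 7498 cells in the order given above, and 4 values in a row below keep that order. The P1 libraries shared 7131 barcodes, whereas other pairs of libraries shared between 28 and 70. The shared barcodes had a median of 12088 UMIs in the P1 maxillary library and 2870 in the P1 mandibular library. Cells with a shared barcode made up 42.2% of the kept P1 maxillary cells and had a median of 12218.5 UMIs, against 2504.5 in the others. They were spread unevenly over cell types, being 99.4% of the ameloblast-like and of the dental papilla-like cells of that library, 74.6% of its epithelium-like, 50.7% of its mesenchyme-like, 8.90% of its glia-like, 2.20% of its neuron-like and 0% of its chondrocyte-like cells. Which library those cells came from cannot be told apart, so values of P1 maxillary epithelium and mesenchyme are also given without them where they matter.

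Cells were clustered in each library without the 9 genes and without the gene lists used below, and clusters were named by marker genes. Amelx, which encodes the main enamel matrix protein, was at 34865 and 62214 CPM (UMIs per 1000000 UMIs of the class) in the ameloblast-like cells of the P1 maxillary and mandibular libraries, and all 11 epithelial markers, all 11 mesenchymal markers and all 9 glial markers had UMIs in the classes of that name in all 4 libraries. The naming itself used these genes, so the values describe the classes and are no separate check of the names. Clusters that met no naming rule held 1.37%, 4.80%, 1.42% and 8.22% of cells and are left out of the comparisons. The epithelium of the E15.5 libraries was not alike in makeup. The maxillary library had 704 epithelium-like cells, of which 413 were suprabasal-like, with Amelx at 0.251 CPM, while the mandibular library had 95, with Amelx at 253 CPM. Those 95 cells took no finer name, but Krt13, Krt15, Ly6d and Krtdap were among the genes that led both them and the maxillary suprabasal-like cluster. At P1, 219 of 1521 maxillary epithelium-like cells were suprabasal-like and 407 of 1091 mandibular ones were ameloblast-like.

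The genes lie on separate parts of the mouse genome (mm10, GENCODE M21). Yap1 is at chr9:7931999-8004596, Wwtr1 at chr3:57455649-57575910, Tead1 at chr7:112679318-112906807, Tead2 at chr7:45215753-45233644, Tead3 at chr17:28331671-28350817, Tead4 at chr6:128224288-128300823, Ccn1 at chr3:145646976-145649981, Ccn2 at chr10:24595442-24598683 and Ankrd1 at chr19:36111961-36120099. Tead1 spans 227 kb and Ccn1 3.01 kb, so levels are compared between cell types for a gene and not between genes. Yap1, Wwtr1, Tead1, Tead2, Tead4 and Ccn2 each overlap an antisense gene in the annotation, and Tead1 also overlaps Gm44462 on its own strand.

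The TEAD recognition sequence is shown in the promoters of the target genes because it is what links the TEAD factors to the target genes. Promoters here are the 300 bases from 250 before to 50 after the annotated start (RefSeq, GRCm38.p6), and 6 of the 9 genes had one in the table used, namely Yap1, Wwtr1, Tead2, Tead3, Ccn1 and Ankrd1. The letters GGAATG, searched on both strands so that CATTCC is the reverse match, were in a promoter of 5 of these 6 genes, all but Tead2. Since Wwtr1 and Tead3 have more than 1 annotated start, the table holds 9 promoters for the 6 genes, of which 7 had a match, both Wwtr1 promoters holding the same site. The letters were in 14.7% of 32851 promoters of the same length. The Ccn1 promoter (chr3:145649936-145650235, minus strand) held 1 reverse match whose first base was 103 bases before the start, and the Ankrd1 promoter (chr19:36119795-36120094, minus strand) held forward matches 210 and 123 bases before it. Both are printed 5′ to 3′ on the strand of the gene, with the matches in capitals.
Ccn1: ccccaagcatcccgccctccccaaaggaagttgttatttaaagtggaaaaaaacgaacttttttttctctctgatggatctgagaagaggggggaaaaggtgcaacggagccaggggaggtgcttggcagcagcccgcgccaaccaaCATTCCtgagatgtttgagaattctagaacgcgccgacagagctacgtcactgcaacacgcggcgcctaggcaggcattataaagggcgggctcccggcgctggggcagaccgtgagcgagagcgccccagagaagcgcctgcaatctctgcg
Ankrd1: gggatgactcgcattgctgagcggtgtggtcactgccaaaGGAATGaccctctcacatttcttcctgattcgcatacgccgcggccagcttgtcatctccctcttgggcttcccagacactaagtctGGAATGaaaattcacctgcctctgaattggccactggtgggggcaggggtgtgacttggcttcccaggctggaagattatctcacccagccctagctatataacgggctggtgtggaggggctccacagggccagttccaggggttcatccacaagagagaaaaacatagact
A match of letters is a description and not a site of binding. The AP-1 letters TGANTCA (7.81% of promoters) and the CArG box of SRF (1.63% of promoters) had no match in the windows of the 6 genes.

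The 2 coactivators differed in where they were high. Among the main cell classes Yap1 was highest in epithelium-like cells in every library, at 75.8, 87.5, 90.3 and 78.9 CPM, against 64.1, 59.1, 69.0 and 66.7 CPM in mesenchyme-like cells. That gap was below 1.5-fold in each library, although the counting intervals did not overlap (in the E15.5 maxillary library 71.0 to 80.9 against 62.0 to 66.3 CPM). Endothelium-like cells were at 39.6, 53.8, 60.6 and 71.3 CPM and glia at 45.3, 46.4, 51.9 and 45 CPM, and their intervals overlapped in each library. In the P1 mandibular library the interval of endothelium (58.6 to 85.9 CPM) also overlapped that of epithelium (74.7 to 83.3 CPM). In the P1 maxillary library without the shared barcodes the intervals of epithelium (61.6 to 95.9 CPM) and mesenchyme (67.4 to 77.5 CPM) overlapped, and endothelium (77.7 CPM, 60.0 to 99.1) was level with epithelium (77.4 CPM), so the order did not hold there. Yap1 was near 0 in blood cells, at 1.53 to 3.46 CPM in leukocytes and 1.17 to 3.29 CPM in erythroid cells.

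Wwtr1 was highest in glia, with endothelium second in each library among the main classes. Glia-like cells, the Schwann cell lineage of the nerves that reach the tooth, were at 443, 441, 452 and 434 CPM. Endothelium was at 258, 263, 383 and 429 CPM, so that in the P1 mandibular library the 2 classes were not separated by their intervals (385 to 488 in glia, 397 to 463 in endothelium). Mesenchyme was at 140, 137, 154 and 145 CPM and epithelium at 59.7, 60.3, 64.0 and 68.7 CPM. Glia were 3.17-, 3.22-, 2.94- and 2.99-fold above mesenchyme. After each cell was thinned to 2000 UMIs, 51.3%, 53.0%, 53.2% and 64.9% of glia had a Wwtr1 UMI, against 24.8%, 22.7%, 25.7% and 26.0% of mesenchyme and at most 1.23% of leukocytes, which give the background from free RNA. Of the summed Yap1 and Wwtr1 UMIs, Wwtr1 made up 44.0%, 40.8%, 41.5% and 46.5% in epithelium, 68.5%, 69.9%, 69.0% and 68.5% in mesenchyme, 86.7%, 83.0%, 86.3% and 85.8% in endothelium and 90.7%, 90.5%, 89.7% and 90.6% in glia. The order of the 4 classes was the same in every library, and the ranges of the 4 classes over the libraries did not overlap.

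**Figure D1:**
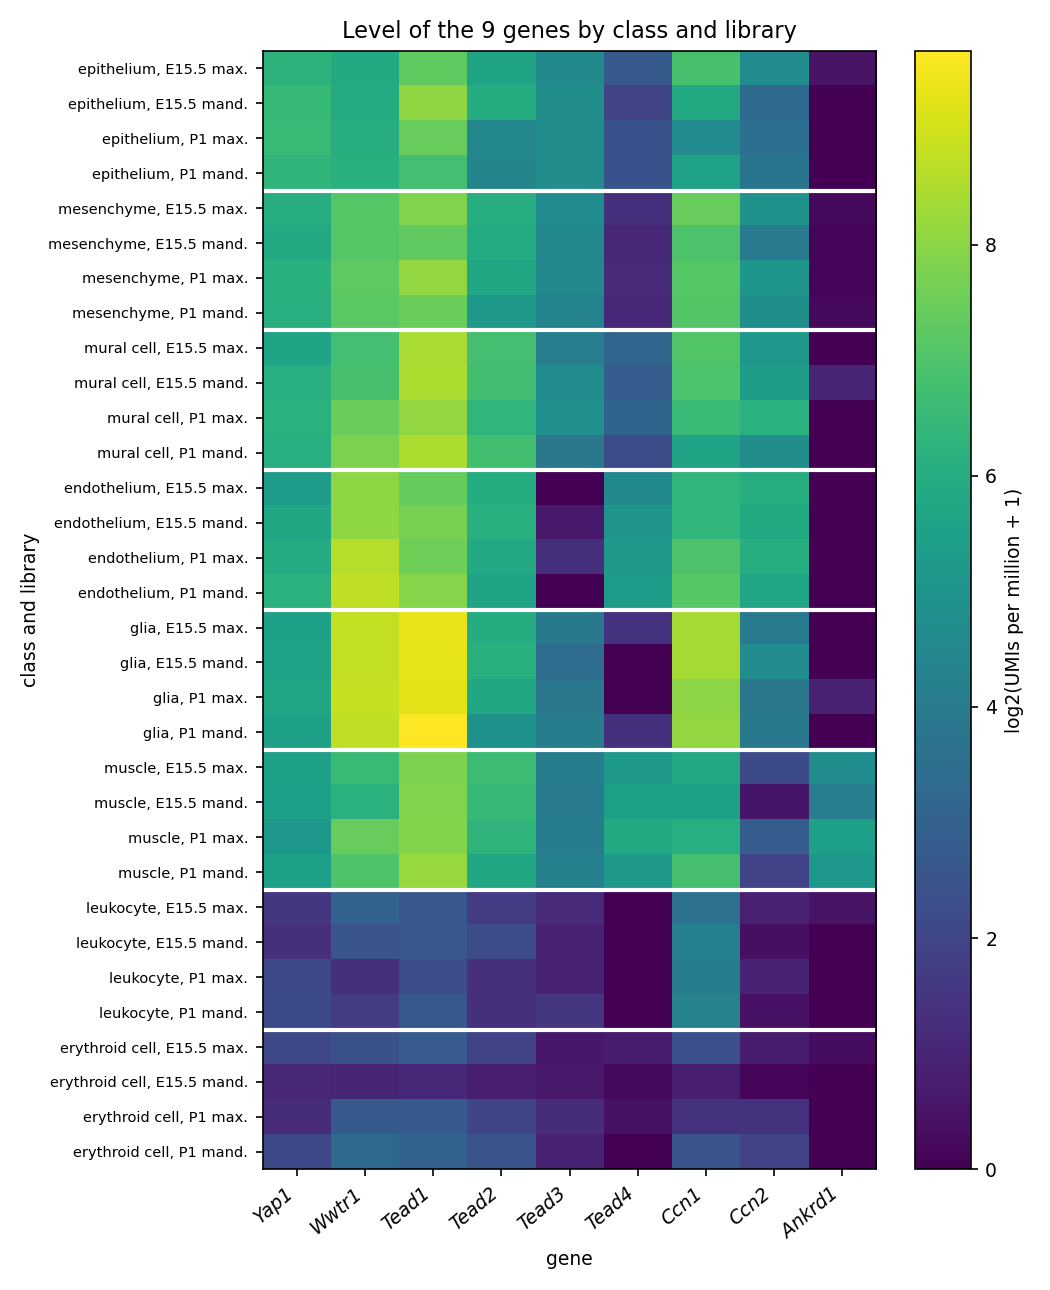
Heat map of log2(CPM + 1), coloured from 0 (dark) upward, for the 9 genes (columns) in 8 cell classes of each of the 4 libraries (rows). Wwtr1 and Tead1 are brightest in glia, Tead4 in muscle and endothelium and Ankrd1 in muscle, and leukocyte and erythroid rows are dark.

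The TEAD genes differed in which class was highest. Tead1 was at 654, 631, 621 and 817 CPM in glia, at 226, 160, 277 and 180 CPM in mesenchyme and at 159, 267, 173 and 110 CPM in epithelium. Glia were thus 2.90-, 3.95-, 2.24- and 4.54-fold above mesenchyme, and stood first among the main classes in each library, although dental papilla-like cells within the E15.5 maxillary mesenchyme were higher still (780 CPM). Tead2 was highest among them in mural-like cells, the pericytes and smooth muscle of vessels, at 110, 106, 82.1 and 107 CPM, with intervals that overlapped those of muscle in all but the P1 mandibular library. Tead3 was at 25.3, 21.8, 22.9 and 19.0 CPM in mesenchyme and at 23.4, 26.4, 25.7 and 26.5 CPM in epithelium. In endothelium Tead3 had 0, 2, 5 and 0 UMIs. The counts of 0 allow up to 0.961 CPM in the E15.5 maxillary and 2.39 CPM in the P1 mandibular library, at the upper end of the exact interval.

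Tead4 was highest in muscle and endothelium. It was at 37.0, 44.8, 57.7 and 36.8 CPM in muscle-like cells and at 23.2, 32.3, 35.3 and 38.2 CPM in endothelium, against 1.45, 1.10, 1.22 and 1.12 CPM in mesenchyme. Endothelium was 16-, 29.3-, 28.8- and 34.1-fold above mesenchyme. Muscle and endothelium were not separated by their intervals in the P1 mandibular library (29.6 to 45.3 and 29.1 to 49.3 CPM). Epithelium lay in between at 5.60, 2.93, 4.47 and 4.45 CPM, too low for the 10 CPM minimum used below.

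Seen as shares of the summed TEAD UMIs, Tead1 made up 88.8% to 94.6% in glia, and Tead4 made up 9.21% to 12.6% in endothelium and 9.26% to 14.9% in muscle but 0.343% to 0.475% in mesenchyme. These shares are not scaled by gene length and serve to compare cell classes for a gene. A class with Tead1 and almost none of either coactivator was the neuron-like class of the P1 maxillary library (862 cells, 2.20% with a shared barcode). There Tead1 was at 223 CPM (95% interval 206 to 241), while Yap1 was at 9.43 and Wwtr1 at 16.7 CPM. Compared with glia of the same library these were 2.79-fold, 5.51-fold and 27.1-fold lower.

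**Figure D2:**
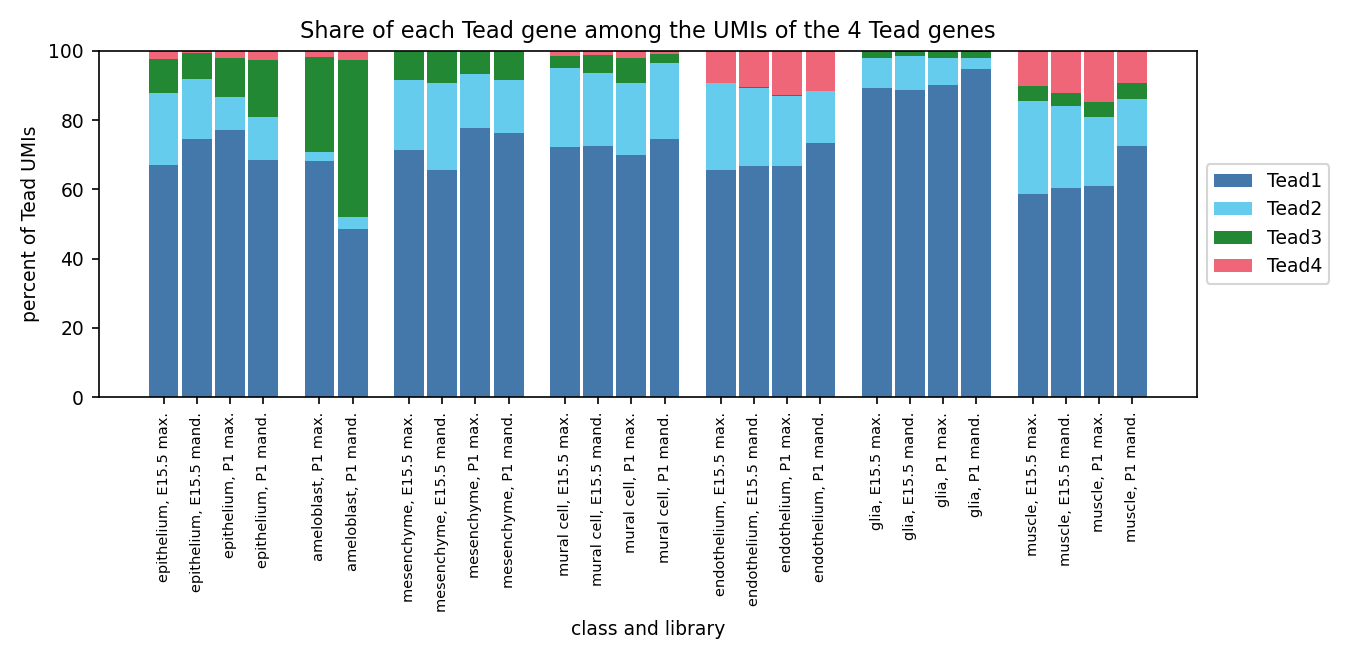
Stacked bars of the percent of the summed Tead1 to Tead4 UMIs that each gene contributed, by cell class and library. Tead1 fills most of the glial bars, Tead4 is visible in muscle and endothelium, and Tead3 is widest in the P1 ameloblast-like bars.

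The target genes differed in where they were high. Ccn1 was at 326, 332, 256 and 274 CPM in glia and at 173, 126, 138 and 135 CPM in mesenchyme. It was higher still in the P1 maxillary chondrocyte-like cells (360 CPM), but at 164 and 84.8 CPM in those of the E15.5 libraries. Single clusters were also above glia, among them a tendon-like cluster of the P1 mandibular library (386 CPM) and an E15.5 maxillary mesenchymal cluster of 96 cells (370 CPM). Ccn2, whose protein is known for its role in cartilage and in fibrosis, was highest among the main classes in endothelium in 3 libraries, at 64.1, 57.9 and 51.9 CPM in E15.5 maxillary, E15.5 mandibular and P1 mandibular. Single mesenchymal clusters were above endothelium in each of these, the highest being P1 mandibular clusters of 78 cells (285 CPM) and 190 cells (105 CPM) that took no finer name. In the P1 maxillary library endothelium was at 64.3 CPM and chondrocyte-like cells at 258 CPM (214 to 308). Chondrocyte-like cells of the E15.5 libraries were at 46.4 and 26.6 CPM, but the maxillary class held 16 cells and the mandibular one was led by bone genes (Ibsp, Ifitm5) as well as cartilage genes. Glia, high in Ccn1, had Ccn2 at 14.7, 24.7, 13.4 and 14.0 CPM, and muscle had it at 3.48, 0.478, 6.11 and 2.90 CPM. P1 maxillary chondrocyte-like cells were thus the highest main class of that library for both genes.

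Ankrd1 was a muscle transcript in these libraries. Muscle-like cells were at 25.1, 16.6, 42.7 and 34.7 CPM and mesenchyme at 0.148, 0.113, 0.0928 and 0.190 CPM. Within muscle, clusters high in Pax7, a factor of muscle progenitors (119 to 185 CPM), differed from the others, in which Pax7 was at 0 to 20 CPM and Acta1, the actin gene of muscle fibres, was higher than in the Pax7-high clusters of the same library. Tead4 was at 12.2 to 50.9 CPM in the Pax7-high clusters and at 97.2 to 126 CPM in the others, except for one P1 mandibular cluster at 23.4 CPM on 7 UMIs. Tead3 went the other way, at 15.4 to 20.3 CPM in the Pax7-high and 0 to 7.71 CPM in the other clusters, and so did Ccn1, at 51.1 to 126 against 4.63 to 20.8 CPM. In each library both genes were higher in every Pax7-high cluster than in the others, but the counting intervals overlapped in 3 of the 4 libraries for Tead3 and in the E15.5 mandibular library for Ccn1. The clusters are few and the smallest held 41 cells, so these values are a description.

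Epithelium and mesenchyme are the tissues whose exchange of signals shapes the tooth. A gene was counted as past the threshold where the levels of the groups differed 2-fold or more and the higher reached 10 CPM, and 7 of the 9 genes reached that level in each comparison made here, Tead4 and Ankrd1 being the exceptions. None of the 7 was higher in epithelium in any library, where 10.2%, 12.9%, 9.77% and 10.8% of all genes with that level were. Lower in epithelium were 1 gene (Wwtr1), 2 genes (Wwtr1 and Ccn1), 4 genes (Wwtr1, Tead2, Ccn1 and Ccn2) and 3 genes (Wwtr1, Ccn1 and Ccn2), against 15.6%, 15%, 15.1% and 15.6% of all genes. Wwtr1 was the gene past the threshold in all 4 libraries, at log2 differences of -1.23 (-1.34 to -1.12), -1.18 (-1.43 to -0.95), -1.26 (-1.35 to -1.17) and -1.08 (-1.17 to -0.99). In the P1 maxillary library Ccn1 was at 24.5 CPM in epithelium and 138 CPM in mesenchyme, a log2 difference of -2.50. Without the cells with a shared barcode, 386 epithelium-like cells remained under the same names, and the log2 difference was -1.44 for Ccn1, -0.88 for Tead2, -1.26 for Wwtr1 and -3.34 for Ccn2. When the remaining cells were clustered and named afresh, the epithelium held 567 cells, and the log2 difference was -0.38 for Ccn1, -0.04 for Tead2, -1.03 for Wwtr1 and -2.72 for Ccn2.

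Some upstream genes differed between the tissues in all 4 libraries. In each list here and below, counts and medians take only genes that reached 10 CPM in the higher group. The shares of all genes are taken in the same way. Among 24 upstream regulators, Wwc1 (KIBRA, an activator of the cascade) and Ajuba (a LIM protein that binds LATS) were higher in epithelium in all 4 libraries, by 3.57, 3.89, 2.31 and 2.66 and by 2.06, 2.16, 1.96 and 2.10 on the log2 scale. The atypical cadherin Fat4 and its ligand Dchs1 were lower in all 4, Fat4 by log2 values of -3.83, -2.75, -3.01 and -3.02 and Dchs1 by -3.43, -2.45, -3.00 and -2.99. Of these 24, 3, 2, 3 and 3 were higher and 6, 6, 4 and 4 lower, and with 9.77% to 12.9% of all genes higher and 15% to 15.6% lower the list as a whole was near the background. Of the 7 genes of the kinase core none was higher, and Lats2 was lower in each library, at 13.1, 22.2, 14.1 and 14.7 CPM in epithelium and 44.5, 44.6, 42.4 and 47.0 CPM in mesenchyme. Vgll4, which encodes a TEAD cofactor that competes with YAP, was at 171, 182, 167 and 187 CPM in epithelium and 85.6, 78.1, 103 and 99.9 CPM in mesenchyme. Another TEAD cofactor, Vgll3, was at 332, 327, 241 and 178 CPM in glia, where Wwtr1 and Tead1 were also high, and Vgll2 was at 113, 192, 71.2 and 124 CPM in muscle and had no UMI in glia. Of the 19 other YAP and TAZ targets 4, 4, 1 and 1 were higher in epithelium and 6 were lower in each library, Gadd45a being higher and Axl, Ccdc80 and Lats2 lower in all 4. Of the 11 SRF targets 0, 0, 0 and 2 were higher (Acta2 and Tagln, genes of smooth muscle, in the P1 mandibular library) and 5, 2, 4 and 2 lower. Of the 17 immediate-early and dissociation genes 2, 5, 13 and 8 were lower in epithelium and 1, 1, 0 and 0 higher (Atf3, at 2.71 and 1.02 on the log2 scale). The median log2 difference of the 24 regulators lay between -0.21 and 0.02, and that of all genes between -0.02 and 0.06. It lay between -0.60 and -0.16 for the other targets, of which 18, 17, 17 and 17 of the 19 reached 10 CPM. For the SRF targets, of which 8 of the 11 did so in each library, it lay between -1.11 and 0.27. For the 17 immediate-early and dissociation genes it lay between -1.54 and -0.46.

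Between E15.5 and P1 none of the 9 genes passed the threshold over the whole mesenchyme of either jaw, with shared barcodes kept in the P1 maxillary library only. Of all genes 5.86% (maxillary) and 7.59% (mandibular) were higher and 3.96% and 3.62% lower at P1. With the shared barcodes kept in both P1 libraries, 1 gene was past the threshold in the mandibular mesenchyme. Yap1 differed by log2 values of 0.11 and 0.17 and Wwtr1 by 0.14 and 0.08. Nearest to the threshold in the mandibular jaw were Tead2, from 61.1 to 36.2 CPM (log2 -0.75, -0.84 to -0.66), and Ccn2, from 15.4 to 26.9 CPM (0.80, 0.66 to 0.95). In the maxillary jaw Tead2 went from 64.2 to 55.0 CPM and Ccn2 from 30.1 to 33.3 CPM, and in P1 maxillary mesenchyme Ccn2 was at 26.5 CPM in cells with a shared barcode and 66.2 CPM in the others. With the shared barcodes left out and names kept Ccn2 was past the threshold in the maxillary jaw (log2 1.13, 1.01 to 1.26), but with the remaining cells clustered afresh it was not (1.00, 0.87 to 1.13). Of the 24 upstream regulators 1 was higher and 1 lower at P1 in each jaw, namely Wwc1 (1.30 and 2.01) and the cadherin gene Dchs2 (-1.49 and -1.13), and Vgll3 was lower in both jaws (-1.80 and -1.10).

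In the epithelium the stages differed by more genes, and Tead2 was the one past the threshold in both jaws. The mandibular count fell from 2 genes to 1 with the shared barcodes kept in both P1 libraries, and also with cells named by their own markers. Tead2 went from 49.4 CPM at E15.5 to 21.1 CPM at P1 in the maxillary jaw (log2 -1.23, -1.42 to -1.04) and from 62.8 to 19.9 CPM in the mandibular jaw (-1.65, -1.94 to -1.37). Lower at P1 were 3 genes in the maxillary jaw (Tead2, Ccn1 and Ccn2) and 2 in the mandibular jaw (Tead1 and Tead2), against 7.76% and 9% of all genes, and none was higher, against 8.55% and 8.72%. Mandibular Tead1 was at 267 CPM at E15.5. At P1 it was at 17.4 CPM in the 407 ameloblast-like cells and at 163 CPM in the other epithelium. Ccn1 went from 115 to 24.5 CPM in the maxillary jaw and from 58.2 to 46.5 CPM in the mandibular jaw. Of the P1 mandibular epithelium 25 cells, a cluster led by Wfdc18 and Tfcp2l1 among other genes, were at 716 CPM of Ccn1 and at 14340 CPM of the summed immediate-early and dissociation genes, and without them P1 was at 28.9 CPM (log2 -1.01, -1.28 to -0.72), which is past the threshold. Yap1, Wwtr1 and Tead3 stayed within log2 values of -0.15 to 0.25 in both jaws. The makeup of the epithelium given above and the shared barcodes differed with the stage. Within maxillary suprabasal-like cells Tead2 was at 28.8 CPM (25.0 to 33.0) at E15.5 and 32.9 CPM (25.3 to 42.0) at P1, and Ccn1 at 104 (96.5 to 112) and 95.5 CPM (82.3 to 110), with overlapping intervals. The lower P1 levels of Tead2 and Ccn1 were thus not seen in that class. Ccn2 was not lower there either, at 5.15 CPM at E15.5. At P1 it was at 28.9 CPM in suprabasal-like cells with a shared barcode and 5.32 CPM in the others. In the other maxillary epithelium, neither suprabasal-like nor ameloblast-like, Tead2 was at 80.4 and 23.2 CPM and Ccn1 at 132 and 18.2 CPM. Ccn2 was at 72.0 (224 cells) and 24.6 CPM (67 cells) in the E15.5 clusters of that class and at 11.1 CPM at P1. That E15.5 class held 2 clusters, one of 67 cells with Wfdc18 as its first gene (Ccn1 at 253, Tead2 at 58.2 and the immediate-early sum at 5801 CPM) and one of 224 cells (67.9, 92.3 and 2412 CPM), and a P1 maxillary cluster with Wfdc18 among its leading genes took no name. In P1 maxillary epithelium Ccn1 was at 21.9 CPM in cells with a shared barcode and 64.3 CPM in the others. Of the 69 UMIs behind the latter, 67 lay in 129 suprabasal-like cells (119 CPM, against 86.0 CPM in suprabasal-like cells with a shared barcode), and the other epithelium had 2 (3.94 CPM, against 18.8 CPM). Without the shared barcodes and under the same names the log2 ratio was -0.41 for Tead2, -0.84 for Ccn1 and -1.95 for Ccn2, so that Ccn2 was the 1 gene still past the threshold. With the remaining cells clustered and named afresh, it was 0.44 for Tead2 and 0.23 for Ccn1, the other direction, and -1.46 for Ccn2. Of 17 immediate-early and dissociation genes, which respond to the handling of tissue, 16 were also lower at P1 in the maxillary epithelium and 0 in the mandibular epithelium. Their part in the Ccn1 difference was not tested.

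**Figure D3:**
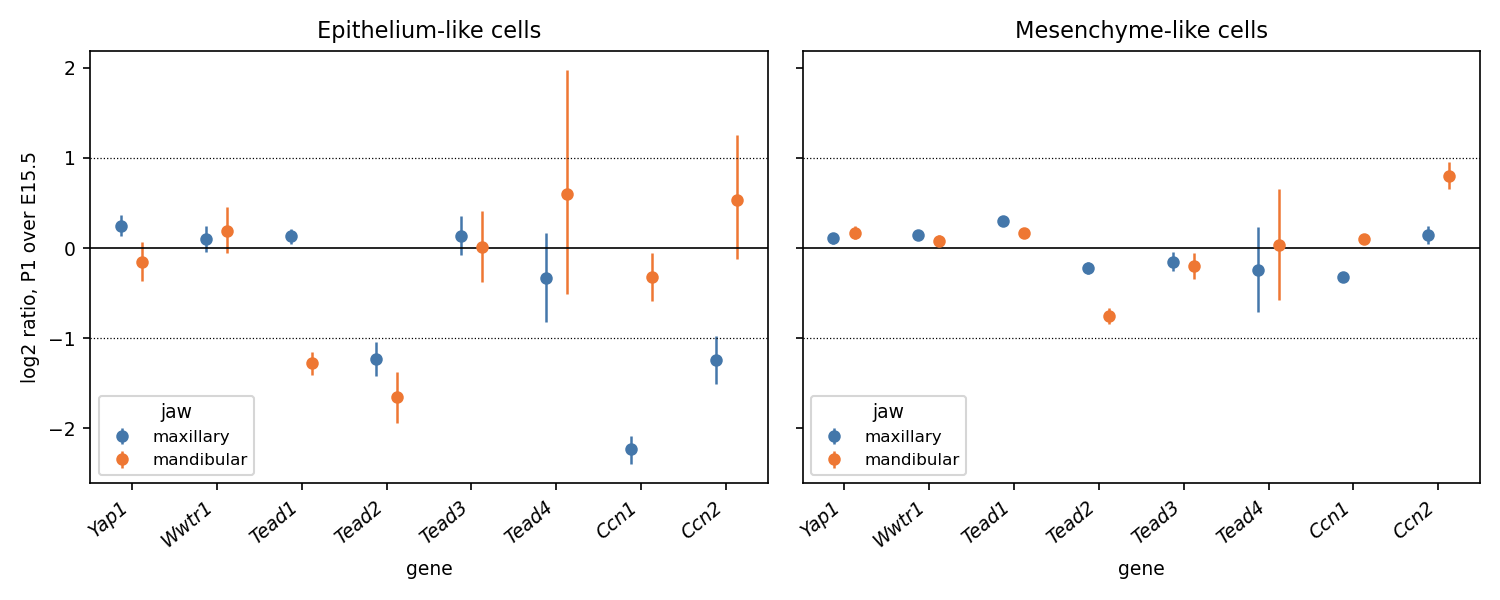
Log2 ratio of P1 over E15.5 for 8 of the genes (Ankrd1 left out), in epithelium and in mesenchyme, by jaw, with 95% counting intervals and dotted lines at a 2-fold difference. With shared barcodes kept in the P1 maxillary library only, mesenchymal points lie within the dotted lines, and Tead2 lies below them in the epithelium of both jaws.

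Jaws were compared within the mesenchyme. None of the 9 genes passed the threshold at either stage, with shared barcodes kept in the P1 maxillary library only. Of all genes 3.11% at E15.5 and 1.38% at P1 were higher in the maxillary jaw and 1.60% and 1.65% lower. Ccn2 came nearest at E15.5, at 30.1 CPM in the maxillary and 15.4 CPM in the mandibular jaw (log2 0.97, 0.82 to 1.11), and Tead1 at P1, at 277 and 180 CPM (0.62, 0.59 to 0.66). At E15.5 Tead1 was at 226 and 160 CPM, so over the whole mesenchyme it was higher in the maxillary jaw at both stages, by less than 2-fold. By class, the summed TEAD genes were lower in the maxillary jaw at E15.5 in mesenchyme with no finer name (332 against 355 CPM, 73.9% and 74.8% of it Tead1) and in osteoblast-like cells (243 against 284 CPM). They were higher there in fibroblast-like (282 against 217 CPM) and tendon-like cells (252 against 195 CPM). The part of the makeup was not tested. Without the shared barcodes Ccn2 was past the threshold at P1, at 66.2 CPM in the maxillary and 26.9 CPM in the mandibular jaw (log2 1.30, 1.17 to 1.43), and it was so too with the remaining cells clustered afresh (60.3 CPM, log2 1.16).

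The P1 libraries held ameloblast-like cells, the differentiated enamel epithelium, and in these Tead1, Tead2, Ccn1 and Ccn2 were low while Wwtr1 was near its level in the other epithelium. The class was set against the other epithelium-like cells that were neither ameloblast-like nor suprabasal-like (178 against 1124 cells in the maxillary and 407 against 630 in the mandibular library), a comparison chosen after the clusters were seen. The other epithelium did not hold the same clusters in both jaws. A cluster with Frem2, Cyp26a1, Igfbpl1 and Vwde among its leading genes was in it in the maxillary library (428 cells). A mandibular cluster with these leading genes (290 cells) took no name and was left out. Tead1 was at 32.4 CPM against 208 CPM in the maxillary library (log2 -2.68, -3.02 to -2.36) and at 17.4 against 163 CPM in the mandibular library (-3.22, -3.53 to -2.93). Tead2 was at 1.19 against 23.2 CPM and at 1.24 against 30.1 CPM, on 3 and 7 UMIs in the ameloblast-like cells. Both TEAD genes were thus far below their level in the other epithelium in each library. Cells with a shared barcode were 99.4% of the maxillary ameloblast-like cells and 77.2% of the maxillary other epithelium. The maxillary comparison therefore cannot be made without them, and the 2 libraries need not stand for 2 jaws here. Ccn1 was at 1.98 against 18.2 CPM and at 3.20 against 68.1 CPM. The mandibular value of other epithelium rests in part on the 25 cells of the Wfdc18 and Tfcp2l1 cluster, and without them it was 40.2 CPM (log2 -3.65), and the log2 difference of Tead3 was -0.98, within 2-fold. Ccn2 had 0 UMIs in the maxillary ameloblast-like cells, which against the floor of 3 counts over the class puts it at least 9.35-fold lower than the 11.1 CPM of other epithelium, and it was at 0.533 against 18.5 CPM in the mandibular library.

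The coactivators differed less. Wwtr1 was at 56.9 against 63.4 CPM (log2 -0.15, -0.42 to 0.10) and at 57.3 against 74.0 CPM (-0.37, -0.56 to -0.18). Yap1 was at 51.8 against 99.8 CPM (-0.95) and at 42.5 against 100 CPM (-1.24), thus 1.93- and 2.36-fold lower. Lower in ameloblast-like cells were 5 genes in the maxillary library (Tead1, Tead2, Tead3, Ccn1 and Ccn2) and 6 in the mandibular library (Yap1 as well), against 18.8% and 23.6% of all genes, and none was higher, against 7.27% and 8.94%. The median gene with UMIs in both groups was itself lower by log2 values of -0.19 and -0.25. Relative to that shift Tead3 was at -0.96 and -0.75 and mandibular Yap1 at -0.99, all within 2-fold, while Tead1 stood at -2.50 and -2.97. Tead3 consequently took a larger share of the TEAD UMIs in ameloblast-like cells, 27.5% (19.7 to 36.4) and 45.5% (38.5 to 52.7), than in other epithelium, 10.9% and 14.1%. The summed level of the 17 immediate-early and dissociation genes was lower as well, at 496 against 851 CPM and 498 against 2334 CPM. Of these 17 genes 15 and 16 reached 10 CPM, and of those 11 and 15 were lower and none higher. Their median log2 difference was -1.91 and -3.19 against -0.28 and -0.38 over all genes, and their part in the differences of the members was not tested.

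Other pathway genes in ameloblast-like cells were mixed. Of 24 upstream regulators 1 was higher and 4 lower in the maxillary library, and 1 higher and 7 lower in the mandibular library. The shares of all genes printed above (7.27% and 8.94% higher, 18.8% and 23.6% lower) are the background of these counts and of those of the lists that follow. Taok3, a kinase that acts upstream of MST and LATS, was the one higher in both (1.24 and 1.2), and Wwc2 (-2.88 and -4.64), Fat1 (-1.34 and -1.50), Dchs2 and Amot were lower in both. Of the 7 genes of the kinase core 0 and 1 were higher and 1 and 2 lower. Lats2 was lower by log2 values of -1.69 and -3.35, and in the mandibular library Stk3, which encodes MST2, was higher (1.30) and Sav1, which encodes the adaptor of MST, lower (-1.03). Vgll4 was lower as well (-1.12 and -1.18). Ccn4, a CCN family member regulated by Wnt signalling, was at 89.3 against 13.5 CPM and at 123 against 6.04 CPM, higher in ameloblast-like cells where Ccn1 and Ccn2 were lower. Of 19 other genes described as targets of YAP and TAZ, 2 were higher in both libraries (Myof, at 1.07 and 1.2 on the log2 scale, and Tgfb2) and 5 and 8 were lower. Igfbp3, which encodes a binding protein of insulin-like growth factors, was among the lower ones at 0.790 against 41.7 CPM and 2.49 against 73.7 CPM. Of 11 targets of SRF, a factor that shares several targets with YAP, 8 reached 10 CPM in each library. None was higher and 4 and 5 were lower, the tropomyosin gene Tpm1 being at 191 against 691 CPM and at 225 against 1152 CPM. Of the 19 other targets 14 and 15 reached 10 CPM. Their median log2 difference was -0.80 and -1.02, against -0.28 and -0.38 over all genes.

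A mesenchymal cluster in each P1 library was led by Bglap, Dmp1, Bglap2, Phex and Ifitm5, genes of mineralising cells (144 maxillary and 128 mandibular cells). Its markers best matched the odontoblast list, but bone genes led it. Bglap, which encodes osteocalcin, was at 1871 and 4473 CPM and the dentin gene Dspp at 331 and 2115 CPM, less than in the ameloblast-like cells of the same library (2358 and 2491 CPM), so the cluster is called by its leading genes. It was set against the dental papilla-like cells (2162 and 1272), again a comparison chosen after the clusters were seen. The dental papilla-like class did not hold the same clusters in both jaws. Clusters with Gabrg3 and Pappa or with Csmd1 and Tnc among their leading genes belonged to it in the maxillary library but took no finer name in the mandibular library, where it held a cluster led by cell-cycle genes such as Top2a. Cells with a shared barcode were 97.2% of the maxillary cluster, so the maxillary comparison cannot be made without them.

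In the Dmp1 and Phex cluster Ccn1 and Ccn2 went in opposite directions. Ccn2 was at 48.9 CPM (41.6 to 57.0) against 9.51 CPM (8.38 to 10.7) in the maxillary and at 59.9 against 10.5 CPM in the mandibular library, log2 differences of 2.36 and 2.52. Ccn1 was at 27.0 against 145 CPM and at 19.3 against 85.5 CPM, log2 differences of -2.42 and -2.14. The intervals did not overlap in either jaw for either gene. As in the ameloblast-like cells, the TEAD genes were low. Tead1 was at 16.1 against 336 CPM and at 11.5 against 215 CPM, log2 differences of -4.38 and -4.22. Tead2 was at 3.04 against 63.3 CPM and at 1.49 against 40.2 CPM, and Tead3 at 4.55 against 23.1 CPM and at 3.72 against 18.7 CPM. Yap1 (log2 -0.45 and -0.21) and Wwtr1 (-0.80 and -0.43) stayed within 2-fold. In each library 1 gene was thus higher, against 10.0% and 11.1% of all genes, and 4 lower, against 24.4% and 26.9%. The median gene with UMIs in both groups was lower by log2 values of -0.14 and -0.21. The summed immediate-early and dissociation genes were at 1453 against 4804 CPM and at 1306 against 2318 CPM. Of these 17 genes 16 reached 10 CPM in each library, and of those 14 and 11 were lower and none higher. Their part in the differences of Ccn1 and Ccn2 was not tested. Ccn4 was higher in the cluster, by 5.33 and 4.90 on the log2 scale. Of the 19 other YAP and TAZ targets 17 and 16 reached 10 CPM, of which 3 and 4 were higher and 11 and 10 lower. Of all genes 10.0% and 11.1% were higher and 24.4% and 26.9% lower. The list median was -1.81 and -1.36 against -0.29 and -0.36 over all genes. F3 (tissue factor), Nt5e and Dock5 were higher in both jaws and Igfbp3, Axl and Crim1 lower in both. Of the 11 SRF targets 7 and 8 reached 10 CPM, of which none was higher and 6 and 8 were lower. In the kinase core Stk3 and Lats2 were lower in both jaws, and among the 24 upstream regulators, of which 1 and 2 were higher and 7 and 8 lower, Frmd6, which encodes Willin, was higher in both (1.62 and 1.35) and Fat4, Amot, Amotl2, Wwc2, Dchs1 and Dlg5 lower in both.

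**Figure D4:**
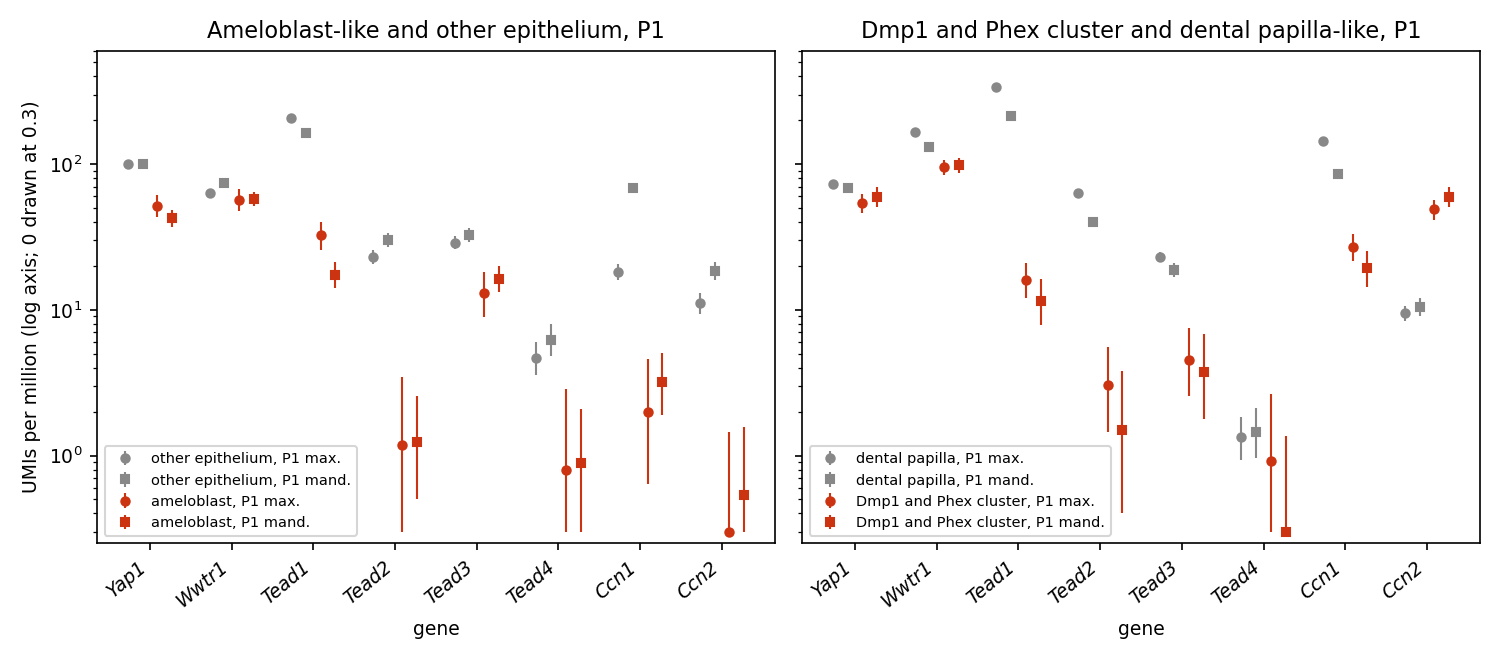
Levels in CPM (log axis, 95% counting intervals, 0 drawn at the lower edge) of the genes in ameloblast-like cells and other epithelium, and in the Dmp1 and Phex cluster and dental papilla-like cells, for both P1 jaws. Wwtr1 stays within 2-fold between the paired classes and Yap1 is 2.36-fold lower in mandibular ameloblast-like cells, Tead1 and Tead2 are far apart, and Ccn2 alone is higher in the Dmp1 and Phex cluster.

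Within the mesenchyme, the spread of Tead1 between clusters was wider than any difference between stages or jaws. The highest cluster of each library was at 780, 471, 1008 and 624 CPM and the median cluster at 217, 169, 258 and 173 CPM. In the E15.5 maxillary and P1 mandibular libraries the highest cluster was dental papilla-like (133 and 110 cells). In the other 2 libraries it was a cluster that took no finer name, of 79 cells led by Col8a1 and of 195 cells led by genes that include Dab1, Tfap2b and Fst, and the closest marker list of both was that of dental papilla. Over all dental papilla-like cells Tead1 was at 780 CPM in the E15.5 maxillary, 336 CPM in the P1 maxillary and 215 CPM in the P1 mandibular library. The lowest cluster at P1 was in both jaws the Dmp1 and Phex cluster.

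Ccn1 is also an immediate-early gene, induced quickly when tissue is handled, so its level was set beside the summed level of 17 immediate-early and dissociation genes in the same clusters. Over mesenchyme-like clusters of 30 or more cells Pearson's r of the log2 levels was 0.86 (14 clusters), 0.60 (9), 0.90 (17) and 0.91 (14) for Ccn1, and 0.51, 0.48, 0.20 and 0.34 for Ccn2. It was 0.30, 0.83, 0.56 and 0.63 for Tead1, in the E15.5 mandibular library above that of Ccn1, and 0.17, -0.70, 0.64 and 0.81 for Wwtr1. Clusters of a library share its handling and sequencing, so these values carry no p. Across tissues the 2 measures parted, since leukocytes had the summed list at 9241, 10097, 10980 and 11443 CPM and Ccn1 at 11.1, 17.1, 16 and 18.8 CPM. In single mesenchyme-like cells thinned to 2000 UMIs, a Ccn2 UMI was found in 8.03%, 5.83%, 9.08% and 5.61% of cells with a Ccn1 UMI and in 5.17%, 2.35%, 6.17% and 4.30% of cells without one. In the P1 mandibular library the intervals overlapped (4.09% to 7.48% against 3.63% to 5.06%). Epithelium-like cells did not share this order, at 5.31%, 0%, 0% and 4.55% with a Ccn1 UMI and 5.56%, 3.53%, 2.02% and 1.74% without, and the intervals overlapped in each library. For the coactivators the shares in mesenchyme-like cells were close, as a Wwtr1 UMI was found in 25.8%, 24.6%, 23.4% and 27.0% of cells with a Yap1 UMI and in 24.6%, 22.5%, 26.1% and 25.8% of cells without one.

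**Figure D5:**
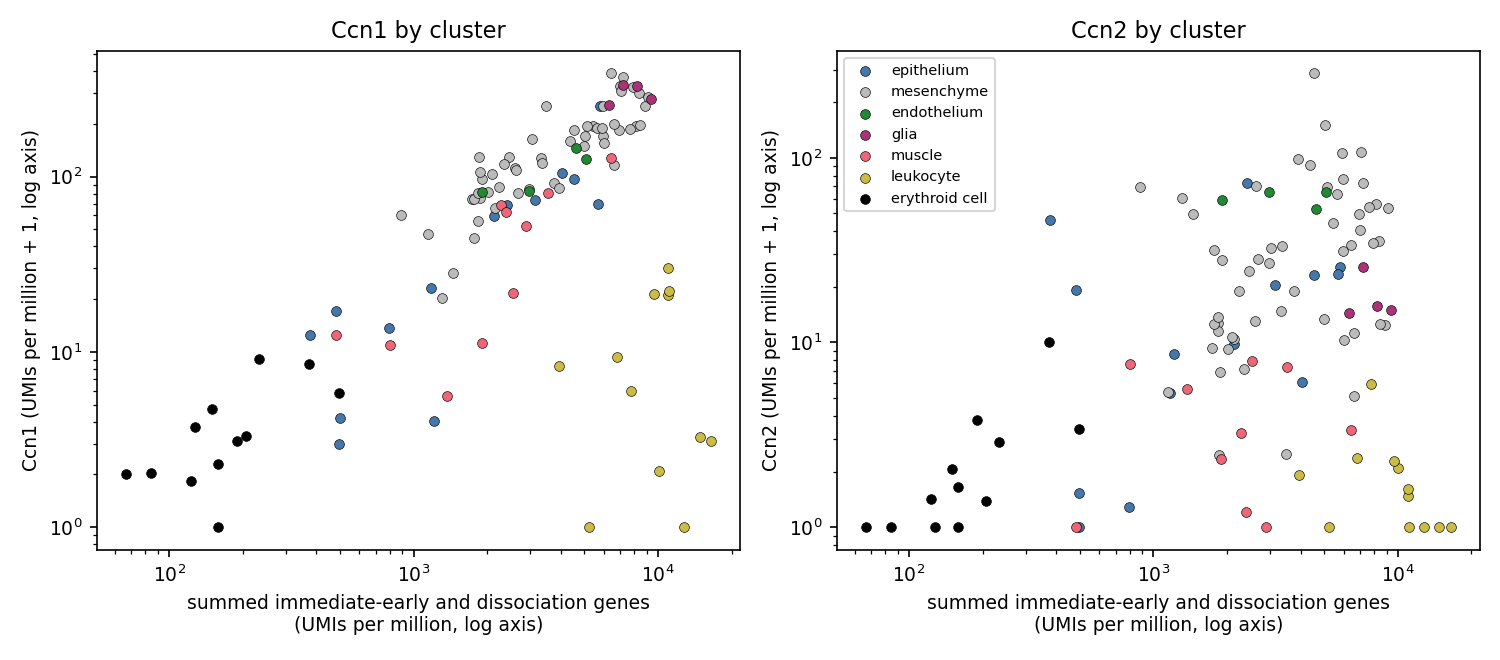
Ccn1 and Ccn2 levels (CPM + 1, log axis) of each cluster of 30 or more cells against the summed CPM of 17 immediate-early and dissociation genes (log axis), 1 point per cluster of any library, coloured by class. Taken library by library, r over mesenchymal clusters was between 0.60 and 0.91 for Ccn1 and between 0.20 and 0.51 for Ccn2. Leukocyte clusters lie at the right with low Ccn1.

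Genes with a pattern like that of each member were sought over 32 points (8 classes in 4 libraries) among 7655 genes that reached 50 CPM in a class, by Pearson's r of log2(CPM + 1). Yap1 was matched most closely by Ryk (0.979), Ttc23 (0.979) and Cuedc1 (0.977), and Wwtr1 by Lamb1 (0.969), Parva (0.961) and Cnn3 (0.959). Tead1 was matched by Rhobtb3 (0.984), Parva (0.975) and Cttn (0.973), so Parva, which encodes an adaptor of integrin adhesions, stood in the lists of both Wwtr1 and Tead1. Tead2 was matched by Dbn1 (0.978), Tead3 by the cadherin Fat1 (0.966) and Tead4 by Myzap (0.928), Cavin2 (0.884) and Tspan12 (0.868). Ccn1 was matched by 1700025G04Rik (0.957) and Maoa (0.95), Ccn2 by Kalrn (0.921) and Lamb2 (0.918), and Ankrd1 by the muscle genes Pax7 (0.977), Mstn (0.972) and Myod1 (0.972). Among the 9 genes themselves r was highest for Wwtr1 and Tead1 (0.954) and lowest for Ccn2 and Ankrd1 (-0.277). Points of a library share its depth and preparation, and blood cells near 0 in most genes may raise r, which was not tested. These values therefore describe the libraries and carry no p.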

How the data were processed

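The authors deposited 10x Genomics matrices of whole-number UMI counts per gene and barcode, made per the labels with Cell Ranger 7.0.1 on mm10 and not normalized. Counts were used as deposited. Barcodes with 1000 or more UMIs were kept, and P1 mandibular barcodes also present in the P1 maxillary library were left out. Doublets were scored with Scrublet in scanpy 1.11.5 and the top share was removed (0.8% per 1000 barcodes), as were barcodes more than 3 median absolute deviations above the median mitochondrial share. Each library was clustered apart with leidenalg 0.10.2 (2000 variable genes, 40 components, 15 neighbours, resolution 1.0), without mitochondrial and ribosomal protein genes, the members and the gene lists. Clusters were named by the class whose markers scored highest in them, and the thresholds for this were set after the clusters were seen. The members, the gene lists and the marker lists were chosen with earlier results of these data known.

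UMIs were summed per class and library and scaled to 1000000 UMIs of the class (CPM). Intervals are exact Poisson intervals for levels and exact binomial intervals for shares and ratios (scipy 1.17.1), 95%, and a ratio against 0 UMIs used a floor of 3 counts over the class. The interval was checked on simulated counts. With 1 library per group no p-value was computed. Named were the 9 members, from each list the 3 genes with the highest mean level, and for each member the 3 genes with the most similar pattern. Counts over a list took its genes that reached the minimum level. Other list genes past the threshold were named after their values were seen. Alternatives covered doublets, mitochondrial share, UMI minimum, shared barcodes, cluster resolution, naming, scaling and the minimum level, and 2 were added after the data were seen (shared barcodes or 1 small cluster left out with the names kept). The depth of a class limits rare genes, so that 3 counts are the floor of each.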

Additional observations from a re-analysis of the deposited data

Results flagged for a closer look

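The difference between P1 and E15.5 had opposite signs, with counting intervals that excluded 0 in both jaws, for 2 genes, and neither contrast between jaws was tested. For Tead1 in the epithelium the log2 ratio of P1 over E15.5 was 0.13 in the maxillary and -1.28 in the mandibular jaw, and the E15.5 mandibular epithelium held 95 cells. For Ccn1 in the mesenchyme it was -0.32 in the maxillary and 0.10 in the mandibular jaw. Without the shared P1 barcodes, names kept, the maxillary values were -0.24 (-0.50 to 0.00) for Tead1 in the epithelium and 0.02 (-0.06 to 0.09) for Ccn1 in the mesenchyme. With the remaining cells clustered afresh they were 0.31 (0.14 to 0.46) and 0.02 (-0.05 to 0.10).

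Clusters that took no name were outside the comparisons, and the 9 genes were found in them at summed levels of 310 (E15.5 maxillary), 139 (E15.5 mandibular), 713 (P1 maxillary) and 407 CPM (P1 mandibular), above the 22.5, 5.60, 20.9 and 32.6 CPM of erythroid cells. The P1 maxillary unnamed cells were 1 cluster of 193 cells led by Reg3g and Bpifa1, genes of airway epithelium. The largest in the P1 mandibular library was a cluster of 290 cells led by Frem2, Stmn2 and Cyp26a1, whose closest marker list was epithelium.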

How the results depend on the processing

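With the shared P1 barcodes kept in both libraries, 1 gene was past the 2-fold threshold between stages in mandibular epithelium and 1 in mandibular mesenchyme. With them dropped from both and the remaining cells clustered and named afresh, 2 were past it between epithelium and mesenchyme in P1 maxillary cells, 1 between stages in maxillary epithelium and 1 between jaws in P1 mesenchyme, the log2 ratios of Tead2 (0.44) and Ccn1 (0.23) between stages in maxillary epithelium changed sign, and 22 of the 26 ratios past the threshold that could still be formed stayed past it. The maxillary ameloblast-like and Dmp1 and Phex comparisons could not be formed that way. In 2 alternatives chosen after the data were seen the names were kept. With the shared barcodes left out of the P1 maxillary library, 1 gene (Ccn2) was past the threshold between stages in maxillary epithelium, 1 (Ccn2) in maxillary mesenchyme and 1 (Ccn2) between jaws at P1, and of the 26 log2 ratios past the threshold that could still be formed none changed sign and 23 stayed past it. Without the 25 cells of the Wfdc18 and Tfcp2l1 cluster no count moved by more than 1.5 times. With cells named by their own markers, 1 gene was past the threshold between epithelium and mesenchyme in the E15.5 mandibular library and 1 between stages in mandibular epithelium. With a minimum of 50 CPM the counts were 1 between stages in maxillary epithelium, 1 and 3 in ameloblast-like cells and 3 and 3 in the Dmp1 and Phex cluster. With no minimum they were 3 between epithelium and mesenchyme in the E15.5 maxillary library and 1 between jaws at P1. Of 36 ratios past the threshold, 31 stayed past it with doublets kept, 35 with no mitochondrial filter, 34 with shared barcodes kept, 33 with own markers, 33 with median-of-ratios scaling, and 36 with a minimum of 2000 UMIs, with resolution 2.0, with the mean over cells and with another total. The size of the ratios was less stable, since 26 of the 36 lay outside their counting interval with doublets kept, 13 with no mitochondrial filter, 8 with shared barcodes kept, 8 with own markers, 6 with the mean over cells, 3 with a minimum of 2000 UMIs, 1 with resolution 2.0 and 1 with median-of-ratios scaling. The cause of these shifts was not tested. Tissues of the same library were compared within it, as values with no test, and no paired test was run over the libraries, which differ in stage or jaw.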
